A study of Mus musculus with 14 samples.

Results

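Estradiol (17-beta-estradiol, E2) given alone was compared with vehicle 3 h after a single injection in the mammary glands of ovariectomized mice. The comparison rests on 4 of the 14 arrays of the series, the 2 whose labels give the treatment as estradiol and the 2 whose labels give it as vehicle. All groups were female C57BL/6 mice, 11 to 12 weeks old on arrival, whose ovaries had been removed 7 days before treatment, so the vehicle group lacked ovarian hormones as well. The labels give the E2 dose as 0.05 mg per mouse, and whether milligrams are meant could not be checked. The other 10 arrays carried acolbifene or E2+acolbifene (2 arrays each) and tamoxifen, raloxifene, fulvestrant or their combinations with E2 (1 array each), which makes 5 arrays with an estrogen receptor blocker alone and 5 with E2 and a blocker. They are used here only to show where the E2 arrays stood apart.

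E2 acts through nuclear receptors, encoded by Esr1 and Esr2, that bind DNA at estrogen response elements or sit on other factors already bound to DNA, such as AP-1 and Sp1. Bound receptor raises some genes and lowers others within hours, before cells divide. In the mammary gland the receptor is found in a part of the luminal epithelial cells and in the stroma, and it is known for inducing the progesterone receptor and for driving ductal growth through growth factors that act on neighbouring cells.

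RNA came from the combined glands of the 8 mice of a group. The labels do not say whether both arrays of a group were made from the same pool, so the p-values describe how far arrays differed, possibly for technical reasons alone. In such bulk tissue, fewer cells of a type and less RNA per cell cannot be told apart. White adipocyte markers (vehicle median 13.2 on the log2 scale), macrophage markers (11.6) and luminal epithelial markers (10.1) were well expressed, and those of skin keratinocytes lay lower (6.68). Markers of endothelium (10.45), lymphocytes (10), brown adipocytes (9.49) and skeletal muscle (9.42) were well expressed too. Those of basal epithelium (8.31) and erythroid cells (7.52) lay between. Array medians ran from 7.16 to 7.23, while hybridization spikes read 10.01 and 10.04 on the E2 arrays against 10.33 and 10.36 on the vehicle arrays. The 6 arrays with tamoxifen, raloxifene or fulvestrant read 9.86 to 10.04, whether E2 was given or not, and those with acolbifene or E2+acolbifene 10.23 to 10.41, so over the series the spikes did not follow E2. The Actb control probe sets for the 3' end exceeded those for the 5' end by 0.41 and 0.43 on the E2 arrays and by 0.28 and 0.24 on the vehicle arrays. The raw-file names carried the code R136 for E2 array 1 and R137 for E2 array 2 and both vehicle arrays, and their meaning is not stated. All 6 arrays with tamoxifen, raloxifene or fulvestrant carried R136, and the 4 with acolbifene or E2+acolbifene R137. The median of 14 skeletal muscle markers against vehicle was -0.82 on E2 array 1 and 0.50 on E2 array 2, and the E2 arrays differed from each other by over 1.5-fold at 310 probe sets, against 111 for the vehicle arrays. The part of these differences in the results below was not tested, and between the E2 and vehicle arrays the spike difference and the treatment cannot be told apart.

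Behind the 12 largest rises and 12 largest falls lay a wide response of moderate size. Among 45037 probe sets tested with limma, 1685 (3.74%) passed an adjusted p under 0.05 for E2 against vehicle, of which 933 (2.07%) were higher and 752 (1.67%) lower. Of the higher ones 570 changed under 1.5-fold, 283 between 1.5-fold and 2-fold, 68 between 2-fold and 4-fold and 12 by more, and of the lower ones 592, 147 and 13 fell in the first 3 of these ranges. The passing probe sets named 1202 genes, 670 higher, 526 lower and 6 with probe sets in both directions (Atrx, Fam20c, Fars2, Fkbp14, Rai1 and Smarca5). With each vehicle or E2 array left out in turn the count ran from 430 (without vehicle array 1) to 941 (without E2 array 2), with 712 when vehicle array 2 was omitted. Omitting E2 array 1, which leaves code R137 alone, gave 479. In all 4 of these fits 222 of the 933 higher probe sets (163 genes) and 72 of the 752 lower ones (47 genes) passed, with median folds of 1.84 and 1.74. Of these, 219 and 67 had changed at least 1.5-fold, a size that 523 of all 45037 probe sets (1.16%) both reached and passed the test with, so few of the smaller changes passed in all 4. This count was chosen after the data had been seen, and it is given below as the number of genes called "in every leave-one-out fit".

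The receptors themselves did not pass. The brightest Esr1 probe set read 10.71 and 10.83 in vehicle and 10.55 and 10.60 after E2 (log2 difference -0.20 ± 0.09, SE, 2 arrays per group, limma adjusted p = 0.265). Esr2 was dim and read 6.64 and 6.46 in vehicle and 6.51 and 6.60 after E2 (0.01 ± 0.12, adjusted p = 0.98). Pgr, the progesterone receptor, served as a check of the treatment. It read 8.05 and 7.57 in vehicle, 10.60 and 10.55 after E2, 7.88 to 9.57 with a blocker alone and 9.60 to 10.59 with E2 and a blocker. Both E2 arrays lay far above both vehicle arrays, and the E2 arrays did not stand apart from the highest combination.

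The genes ranked 13 to 36 by rise included several that damp growth factor and cytokine signals, remodel matrix, or respond to stress. All 24 passed in every leave-one-out fit, with log2 rises of 1.17 to 1.60. Errfi1, an inhibitor of the EGF receptor, read 9.55 and 9.63 in vehicle and 11.12 and 11.05 after E2 (2.82-fold, adjusted p = 5.72e-06). Socs3, which blocks JAK and STAT signalling from cytokine receptors, read 9.38 and 9.64 in vehicle and 10.89 and 10.84 after E2 (2.56-fold, adjusted p = 6.25e-05). In both genes the E2 arrays also lay above all 10 others, which ran from 9.61 to 10.77 for Errfi1 and from 9.68 to 10.71 for Socs3. Of these 10 arrays, 9 lay above both vehicle arrays for Errfi1 and all 10 for Socs3.

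Matrix genes of these ranks were led by Plod2, a lysyl hydroxylase needed for collagen cross-links, which read 8.96 on both vehicle arrays and 10.46 and 10.67 after E2 (3.04-fold, 1.60 ± 0.09, adjusted p = 5.72e-06). Adamts1, a secreted protease that cuts proteoglycans, read 8.94 and 8.89 in vehicle and 10.30 and 10.46 after E2 (2.77-fold, adjusted p = 1.48e-05). Its other 10 arrays ran from 9.21 to 10.07. Tgm2, a protein cross-linking transglutaminase, rose 2.32-fold from 10.23 and 10.39 to 11.56 and 11.49, and its 4 brighter probe sets rose by 0.78 to 1.07 on the log2 scale. The pentraxin Ptx3, a soluble protein of innate immunity, rose 2.81-fold, and its lower E2 array (10.33) lay within the reach of the other arrays (up to 10.35). All 10 other arrays lay above both vehicle arrays for Adamts1 and Ptx3, and 9 did for Plod2 and Tgm2. Genes were ranked only among calls whose vehicle and E2 arrays did not overlap, as was so for 52.1% of all probe sets, so nothing is read from that.

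Regulators of the nucleus in the same ranks included Gadd45g and Gadd45a, small proteins of the stress and growth arrest response. Gadd45g read 7.60 and 7.85 in vehicle and 9.41 and 9.18 after E2 (1.57 ± 0.12, adjusted p = 6.26e-05), and Gadd45a read 7.85 and 7.88 in vehicle and 9.19 and 8.93 after E2 (1.20 ± 0.12, adjusted p = 0.000345). Jdp2, a repressor of the AP-1 family, rose 2.50-fold. Prdm16, known as a determinant of brown fat, read 7.30 and 7.56 in vehicle and 8.36 and 8.85 after E2 (2.25-fold, adjusted p = 0.0019), and only 5 of the other 10 arrays lay above both vehicle arrays. Rbm20, a splicing factor best known for titin in the heart, rose 2.54-fold from 6.77 and 6.89 to 8.22 and 8.13. For Greb1, which estrogen induces in human breast cancer cells, the probe set that rose by 1.58 was dim in vehicle (5.38 and 5.42), and its brighter probe set gave 0.00 (adjusted p = 0.995). Among genes of membranes, Prom2, a glycoprotein of membrane protrusions, rose 2.87-fold, the phospholipid flippase Atp8b1 2.52-fold and the mitochondrial nucleotide carrier Slc25a33 2.38-fold. All 10 other arrays lay above both vehicle arrays for Jdp2, Prom2, Atp8b1 and Slc25a33. For Gadd45g 9 did, and for Gadd45a, Rbm20 and Greb1 8.

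A pair of muscle genes stood in this range as well. Mb, myoglobin, read 7.08 and 7.10 in vehicle and 8.34 and 8.98 after E2, and Ldb3, a protein of the muscle Z-disc, read 6.91 and 6.71 in vehicle and 7.99 and 8.40 after E2. E2 array 2 was the higher in both, and it was the array with the higher muscle marker median (0.50 against -0.82). All 10 other arrays lay above both vehicle arrays in both genes, at 7.19 to 8.90 for Mb and 7.40 to 8.00 for Ldb3. The brighter probe set of Ldb3 gave -0.25 (adjusted p = 0.464). Of the 14 muscle markers, Mb and Tnnt1 (0.68, adjusted p = 0.0214) passed and 12 did not, and Tnnt1 lost its call without vehicle array 1, vehicle array 2 or E2 array 2 (adjusted p up to 0.115). Without E2 array 2, 9 of the 14 markers were called lower and 1 higher, and without E2 array 1, 5 were called higher and 0 lower.

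**Figure D1:**
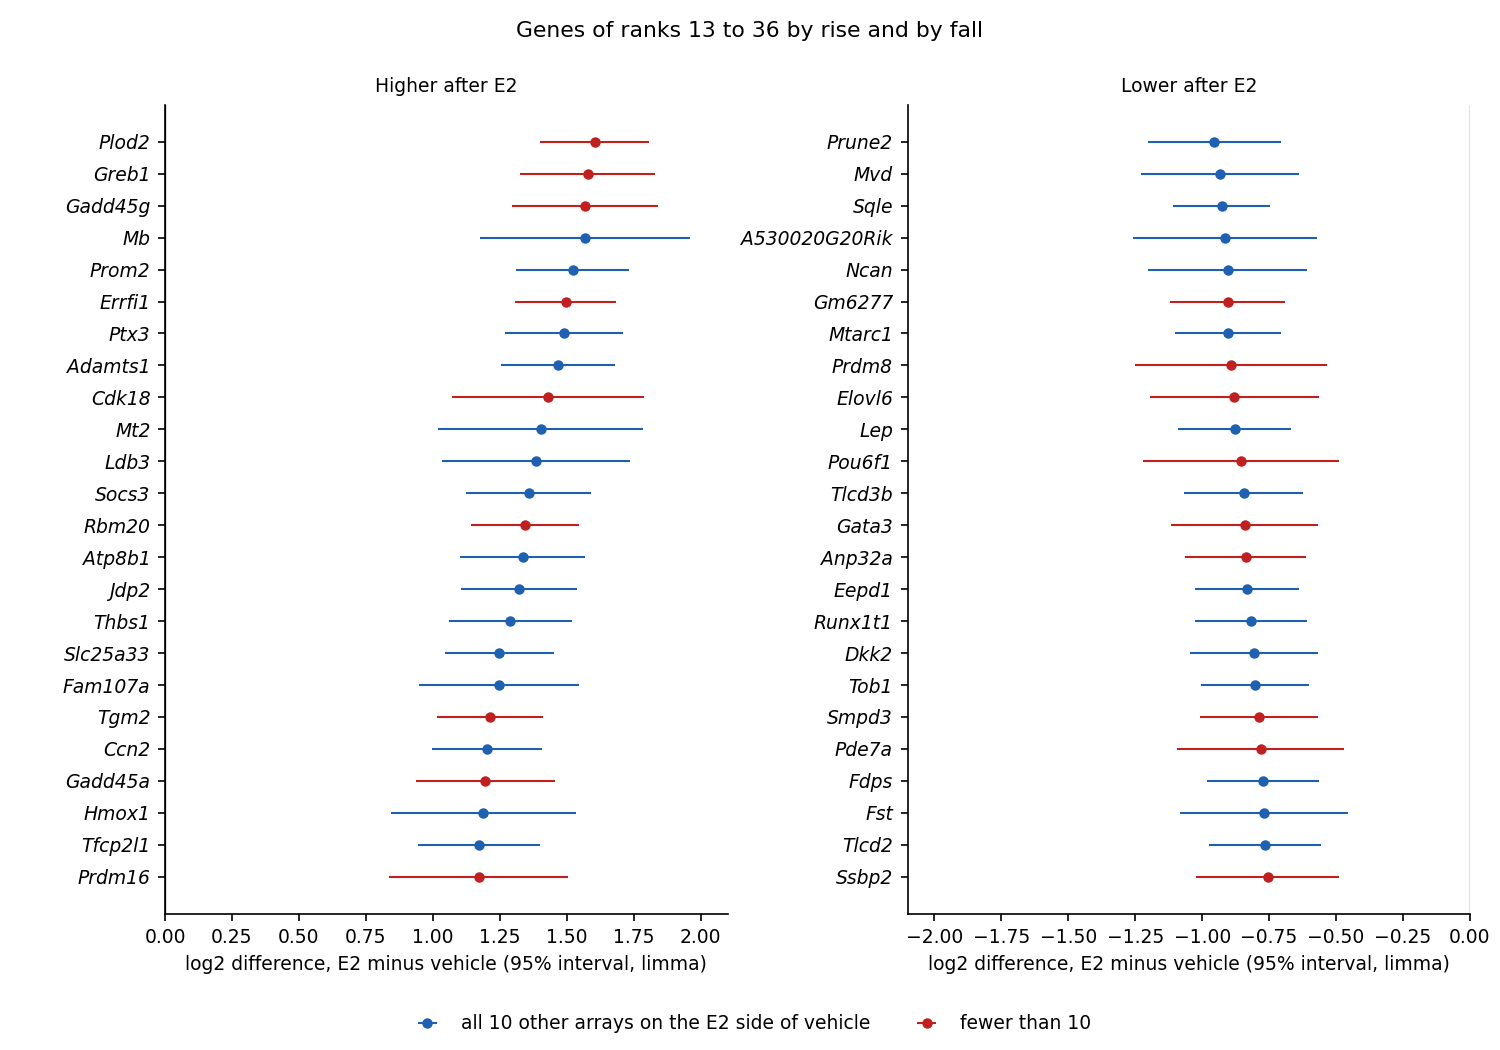
Log2 difference between E2 and vehicle (horizontal axis, points with 95% limma intervals, 2 arrays per group) for the genes ranked 13 to 36 by rise (left) and by fall (right). The rises run from 1.17 to 1.60 and the falls from -0.95 to -0.76, and blue points, 15 of 24 in each panel, mark genes in which all 10 other arrays lay on the E2 side of both vehicle arrays.

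The genes ranked 13 to 36 by fall were dominated by no single role, and their calls were less stable: 16 of 24 passed in every leave-one-out fit. Enzymes of the sterol pathway were among them. Sqle, squalene epoxidase, read 10.44 and 10.42 in vehicle and 9.52 and 9.49 after E2 (-0.93 ± 0.08, adjusted p = 0.000157), and Mvd, mevalonate diphosphate decarboxylase, read 7.41 and 7.35 in vehicle and 6.69 and 6.20 after E2 (-0.93 ± 0.13, adjusted p = 0.00377). The brighter probe set of Mvd gave -0.30 (adjusted p = 0.115). Lep, the satiety hormone leptin of white adipocytes, read 10.10 and 10.18 in vehicle and 9.28 and 9.25 after E2 (-0.88 ± 0.10, adjusted p = 0.000646). Combinations of E2 with a blocker reached as low as 9.37 for Sqle and 8.81 for Lep. With a blocker alone Sqle ran from 9.63 to 9.95. Without E2, Lep read 9.24 with tamoxifen, 9.31 with raloxifene, 9.24 with fulvestrant and 9.88 and 10.065 with acolbifene. All 10 other arrays lay below both vehicle arrays for Sqle, Mvd and Lep.

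Gata3, a transcription factor that maintains luminal cells, read 8.27 and 8.25 in vehicle and 7.32 and 7.52 after E2 (-0.84 ± 0.13, adjusted p = 0.00441), and lost its call without E2 array 1 (adjusted p = 0.0604). Its values ran from 7.72 to 8.34 with a blocker alone. Tob1, an antiproliferative protein that binds the mRNA deadenylase, read 8.62 and 8.45 in vehicle and 7.69 and 7.77 after E2 (-0.80 ± 0.09, adjusted p = 0.000873), with a brighter probe set at -0.38 (adjusted p = 0.0942). Runx1t1, a transcriptional corepressor, fell by 0.82, the ceramide-producing sphingomyelinase Smpd3 by 0.79 and the Wnt modulator Dkk2 by 0.80 from a dim level. Fst, which binds activin, read 8.86 and 9.06 in vehicle and 7.95 and 8.44 after E2 (-0.77 ± 0.14, adjusted p = 0.015), and lost its call without vehicle array 1, vehicle array 2 or E2 array 1 (adjusted p up to 0.0927). Elovl6, a fatty acid elongase, fell by 0.88 and lost its call without vehicle array 1 or E2 array 1 (adjusted p up to 0.0861). The other 5 that lost their calls were A530020G20Rik, Prdm8, Pou6f1, Pde7a and Ssbp2, and brighter probe sets of Pou6f1 (0.05), Pde7a (-0.24 to -0.37) and Ssbp2 (-0.14) did not pass. All 10 other arrays lay below both vehicle arrays for Tob1, Runx1t1, Dkk2 and Fst. For Smpd3 and Elovl6 9 did, and for Gata3 8.

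The called probe sets were also read against the other 10 arrays. All 12 arrays outside the vehicle group, whatever the treatment, lay above both vehicle arrays for 295 of the 933 higher probe sets (31.6%) and below both for 336 of the 752 lower ones (44.7%), against 6.24% on either side among all probe sets. Every one of these arrays is read against the same 2 vehicle arrays, which carry code R137. Taking the 4 other arrays of code R137 alone, all lay on the E2 side for 51% of the higher and 52.3% of the lower probe sets (10.3% of all), and taking the 6 of code R136 alone, for 46.3% and 73.9% (17% of all). The split by code was added after the data had been seen. By a margin over 0.25 log2 on each array the counts were 41 (4.39%) and 31 (4.12%), against 0.204% of all probe sets. With all 12 arrays on one side, the E2 and vehicle arrays cannot overlap, and 52.1% of all probe sets met that condition. The call itself favours such probe sets, so the selection sets part of the excess over 6.24% and 0.204%. The size of that excess is not read. The share with all 12 arrays on one side was 28.4% of the 570 smallest rises and 47.1% of the 68 rises between 2-fold and 4-fold. It was 42.4% of the 592 smallest falls and 53.1% of the 147 falls between 1.5-fold and 2-fold. Among the calls made in every leave-one-out fit it was 44.1% of the 222 higher and 62.5% of the 72 lower probe sets. The size of a change and this share use the same 2 vehicle arrays, so extreme vehicle values raise both. The share by size was not counted over all probe sets, so no trend with size or stability is read.

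**Figure D2:**
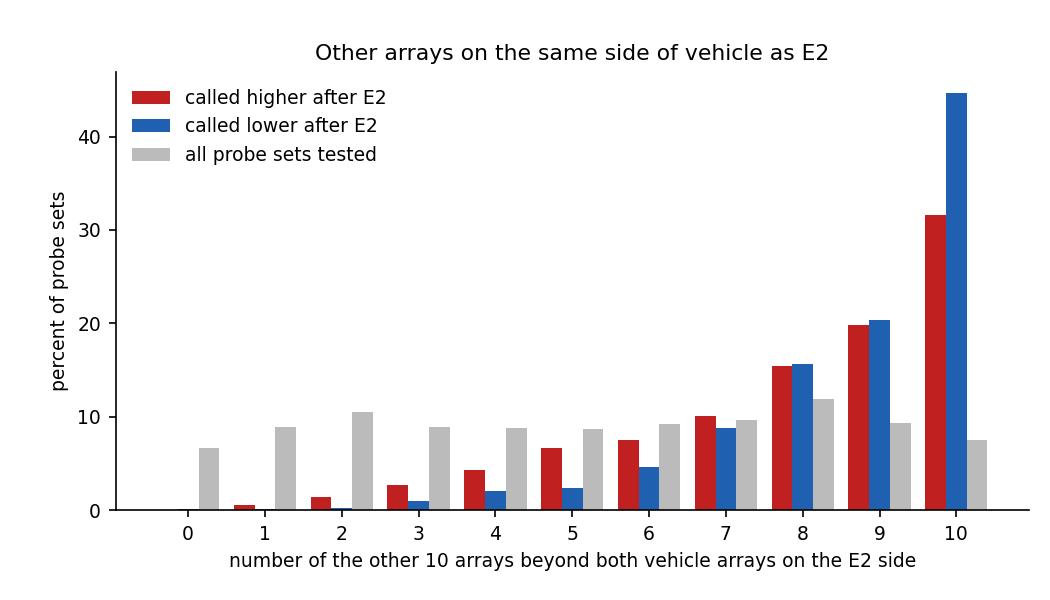
Share of probe sets (vertical axis, percent) by the number of the other 10 arrays, all but the vehicle and E2 arrays, that lay beyond both vehicle arrays on the same side as E2 (horizontal axis), for probe sets called higher, called lower and all 45037 tested. The bars at 10 reach 31.6% for the higher and 44.7% for the lower calls, where the 2 E2 arrays lie on that side too.

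At the other end, both E2 arrays lay beyond all 12 other arrays for 405 of the 933 higher probe sets (43.4%) and 177 of the 752 lower ones (23.5%), against 7.33% of all probe sets. Here too the E2 and vehicle arrays cannot overlap, which the call favours, so the size of this excess is not read. None of the other 10 arrays lay over 0.25 log2 beyond vehicle on the E2 side for 106 of the higher (11.4%) and 58 of the lower ones (7.71%). The share among all probe sets was not counted for this margin, so nothing is read from these 2 counts. None of the 13 falls over 2-fold had both E2 arrays below every other array, against 34 of the 68 rises between 2-fold and 4-fold above every other array.

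The genes in which both E2 arrays stood farthest above every other array were signalling and transcription genes in part. Gadd45g had the widest gap, 0.62 on the log2 scale between its lower E2 array (9.18) and the highest other array (8.56, with E2 and a blocker). Fbxw17, an F-box protein, read 8.30 and 8.44 in vehicle, 9.14 and 9.05 after E2 and 8.23 to 8.68 on the other 10 arrays (1.66-fold, adjusted p = 0.00135, gap 0.37). Il17ra, the receptor for interleukin 17, read 9.74 and 9.67 in vehicle, 10.86 and 10.73 after E2 and 9.66 to 10.37 on the others (2.14-fold, adjusted p = 8.11e-05). Il17ra thus also had 9 of the other 10 arrays above both vehicle arrays, while Fbxw17 had 3.

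Fosl2, a subunit of AP-1, read 8.95 and 9.12 in vehicle and 9.99 and 9.92 after E2 (1.90-fold, adjusted p = 0.00097), and up to 9.63 with a blocker alone. Phf21b, a PHD finger protein, rose 2.23-fold from dim levels of 5.88 and 5.71 to 7.07 and 6.82, and blockers alone held it at 5.60 to 5.91. Fbxo31, a substrate adaptor of a ubiquitin ligase, rose 1.67-fold. Atf4, the central transcription factor of the integrated stress response, rose 1.64-fold at a probe set that read 8.48 and 8.66 in vehicle and 9.29 and 9.28 after E2, but its brighter probe set gave 0.13 (adjusted p = 0.409). Of the 15 raised genes with the widest gap, 9 passed in every leave-one-out fit. The 6 that did not were Bhmt2, Rsbn1, Snrnp48, Nudt21, the innate immune kinase Tbk1 and Znhit6, each lost without vehicle array 1 (adjusted p up to 0.199). Rsbn1 (0.33), Snrnp48 (-0.12) and Tbk1 (0.15) had brighter probe sets that were not called.

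The genes in which both E2 arrays stood farthest below every other array included tight junction and luminal genes. Cldn3, a claudin of luminal cells, read 9.80 and 9.86 in vehicle, 9.33 and 9.24 after E2 and 9.67 to 10.03 on the other 10 arrays (-0.55 ± 0.09, adjusted p = 0.00678), and lost its call without vehicle array 2 (adjusted p = 0.0516). Cldn8 read 7.70 and 7.63 in vehicle, 6.98 and 6.94 after E2 and 7.25 to 7.81 on the others (-0.70 ± 0.11, adjusted p = 0.00737), and lost its call without vehicle array 1 or E2 array 1 (adjusted p up to 0.0721). Cited1, a coactivator that binds the estrogen receptor, read 9.12 and 9.10 in vehicle and 8.58 and 8.49 after E2, and 8.80 to 9.36 on the others (-0.58 ± 0.08, adjusted p = 0.00413). Of the other arrays, none lay over 0.25 log2 below vehicle for Cldn3, 1 did for Cldn8 and 4 did for Cited1, all with E2 and a blocker.

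Arg2, the mitochondrial arginase, read 6.82 and 7.04 in vehicle, 6.16 and 6.23 after E2, 7.13 to 7.43 with a blocker alone and 6.58 to 7.17 with both (-0.73 ± 0.11, adjusted p = 0.00382). It was thus lowest with E2 and highest with blockers alone. Sema3c, a secreted guidance factor, read 8.94 and 9.11 in vehicle and 8.34 and 8.36 after E2 (-0.68 ± 0.09, adjusted p = 0.00248), with 8.71 to 8.87 for E2 with a blocker. The clock output factor Dbp combined both patterns: it read 8.96 and 8.84 in vehicle, 7.86 and 7.94 after E2 and 8.18 to 8.43 on the other arrays, so that the E2 arrays were lowest while all the others were below vehicle too. Of the 15 lowered genes with the widest gap, 4 (Arg2, Sema3c, Dbp and Cited1) passed in every leave-one-out fit. Brighter probe sets of 8 of the 15 were not called, among them Arhgap29 (-0.07), Vav3 (0.08), Trip12 (0.17 to -0.10) and Sema3c (-0.35, adjusted p = 0.0684).

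**Figure D3:**
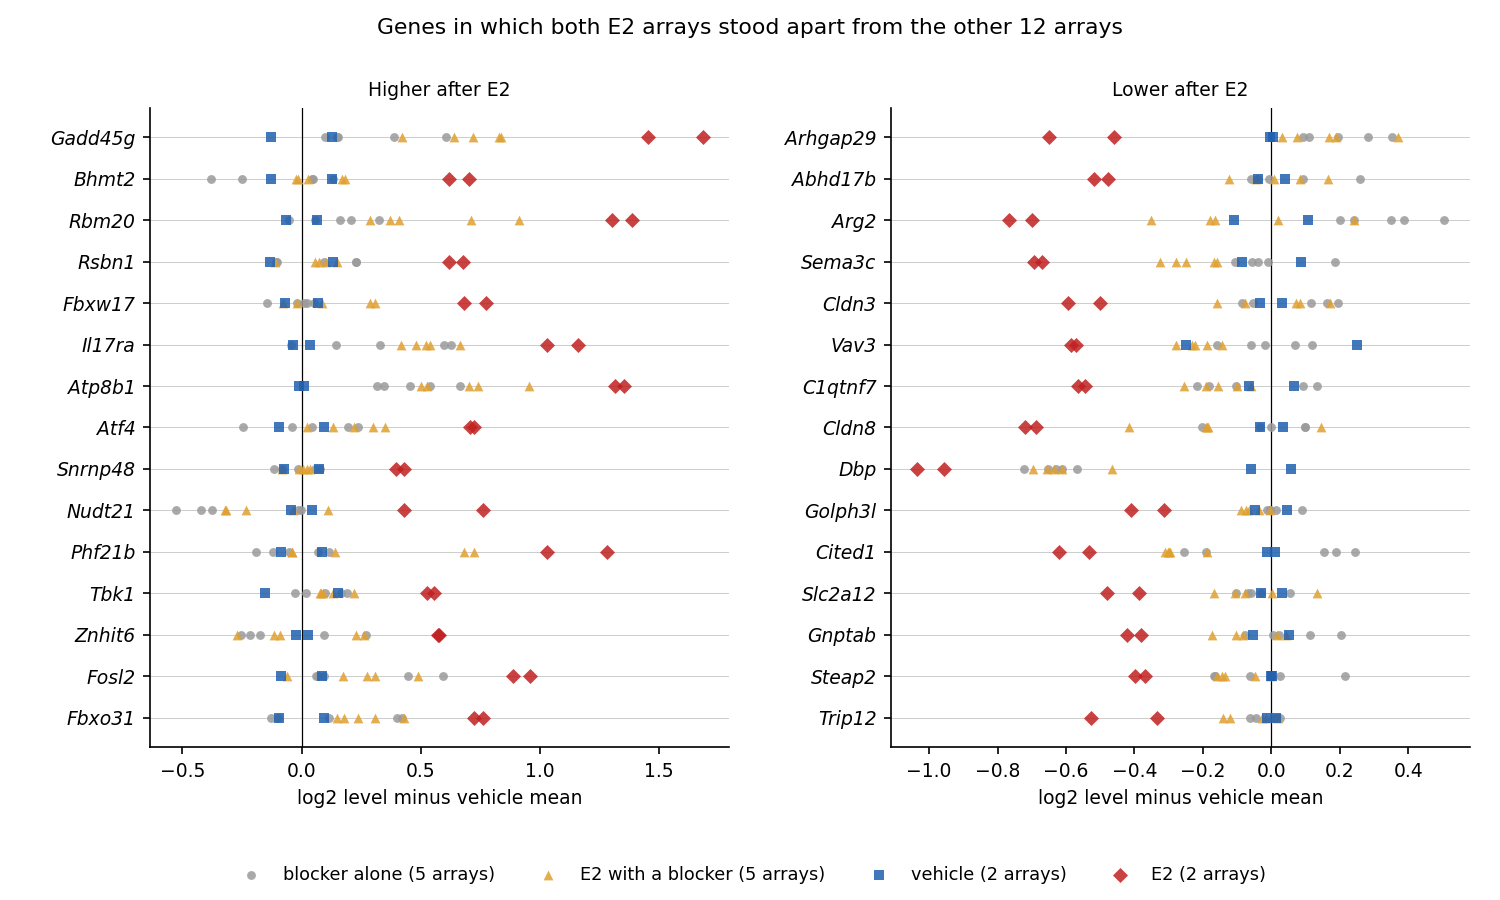
Log2 level minus the vehicle mean (horizontal axis) on each of the 14 arrays for the 15 raised (left) and 15 lowered (right) genes with the widest gap between both E2 arrays and the nearest other array. The gaps run from 0.29 to 0.62 for raised and from 0.19 to 0.46 for lowered genes, and Dbp and Atp8b1 are those in which all 10 other arrays also lie to the E2 side of vehicle.

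In a further set every array outside the vehicle group stood apart from it. Mt2, a metallothionein that binds zinc and copper, read 10.49 and 10.57 in vehicle, 12.29 and 11.57 after E2, 11.27 to 11.34 with a blocker alone and 11.06 to 11.56 with both (2.64-fold, adjusted p = 0.00139). Ccn2, a matricellular growth factor and a target of YAP, read 8.11 and 8.31 in vehicle, 9.42 and 9.41 after E2, 8.96 to 9.32 with a blocker alone and 8.88 to 9.05 with both (2.30-fold, adjusted p = 6.19e-05). Thbs1, a thrombospondin, read 8.43 and 8.27 in vehicle, 9.57 and 9.71 after E2 and 8.88 to 9.76 on the others. In each of the 3 genes a gap of over 0.25 log2 separated both vehicle arrays from all 12 others.

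Against acolbifene, an arm that does not use the vehicle arrays, 1922 probe sets (4.27%) differed for E2, and against E2+acolbifene 1649 (3.66%). These counts rested on both E2 arrays: they were 215 and 284 without E2 array 1 and 1280 and 240 without E2 array 2, and the count against E2+acolbifene was 82 with the muscle marker median as a covariate. E2 minus acolbifene was 0.60 for Mt2 (adjusted p = 0.0783), 0.19 for Ccn2 (adjusted p = 0.271) and 0.16 for Thbs1 (adjusted p = 0.393). E2 minus E2+acolbifene was 0.80 for Mt2 (adjusted p = 0.0352), 0.38 for Ccn2 (adjusted p = 0.0499) and 0.70 for Thbs1 (adjusted p = 0.011). For Gadd45g the same 2 differences were 1.07 (adjusted p = 0.0017) and 0.84 (adjusted p = 0.0105), and for Fbxw17 0.69 (adjusted p = 0.00316) and 0.77 (adjusted p = 0.00299). Fbxw17 passed both without either E2 array (adjusted p up to 0.0466), and with the muscle covariate its second difference had an adjusted p of 0.0509. The calls against E2+acolbifene were lost without E2 array 1 for Mt2 (adjusted p = 0.0845) and Gadd45g (0.0628), without E2 array 2 for Thbs1 (0.0793), without either for Ccn2 (up to 0.197), and with the muscle covariate for all 4 (0.0592 to 0.156). Mt2 passed against acolbifene without E2 array 2 (adjusted p = 0.00409). These comparisons share the E2 arrays with the one against vehicle. Gadd45g and Fbxw17 were named because both E2 arrays lay above every other array, those with acolbifene and E2+acolbifene included. Mt2, Ccn2 and Thbs1 were named because all the other arrays lay far above vehicle. The choice of genes thus bears on the size of these differences, and no contrast between the genes is read from them.

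Zbtb16, a zinc finger repressor known to respond to glucocorticoids, read 9.53 and 9.56 in vehicle, 10.12 and 10.32 after E2 and 10.18 to 10.74 on the other arrays. E2 array 1 was thus the lowest of the 12, and E2 array 2 lay among the others (1.60-fold over vehicle, adjusted p = 0.0032). Hmox1, heme oxygenase, read 8.90 and 8.92 in vehicle, 10.42 and 9.78 after E2 and 9.37 to 10.10 on the others. Pdk4, a kinase that restrains glucose oxidation, read 10.62 and 10.70 in vehicle, 11.97 and 11.41 after E2 and 11.09 to 11.88 on the others (2.04-fold, adjusted p = 0.00351). Tfcp2l1, an epithelial transcription factor, read 7.31 and 7.23 in vehicle, 8.57 and 8.31 after E2 and 7.79 to 9.04 on the others. Mybpc1, a myosin-binding protein of muscle, was in this set too, with 6.87 and 7.54 after E2 against 6.18 and 6.10 in vehicle. All 12 raised genes of this set passed in every leave-one-out fit, Mybpc1 with an adjusted p of up to 0.0489.

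Lowered genes of the same kind were Sqle and Mvd, above, and Prune2, which read 10.38 and 10.45 in vehicle, 9.28 and 9.63 after E2 and 9.20 to 9.96 on the others (-0.95 ± 0.11, adjusted p = 0.00106). Slc2a5, a fructose transporter, read 9.56 and 9.60 in vehicle, 8.89 and 8.83 after E2 and 8.84 to 9.19 on the others (-0.72 ± 0.08, adjusted p = 0.00095). Chn1, a GTPase-activating protein for Rac, fell by 0.72. Both E2 arrays lay within the range of the other 10 for Prune2 and Chn1 and at its lower end for Slc2a5, while E2 array 2 of Mvd (6.20) lay below the lowest of them (6.58). Ddx6, Gimap6, Csnk2a1 and Ltc4s, the synthase of leukotriene C4, passed with all arrays (-0.41 to -0.61) and lost their calls without vehicle array 1, vehicle array 2 or E2 array 1 (adjusted p up to 0.252), and brighter probe sets of Ddx6 (0.14 and -0.05), Gimap6 (-0.13) and Csnk2a1 (0.03 and 0.14) did not pass.

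**Figure D4:**
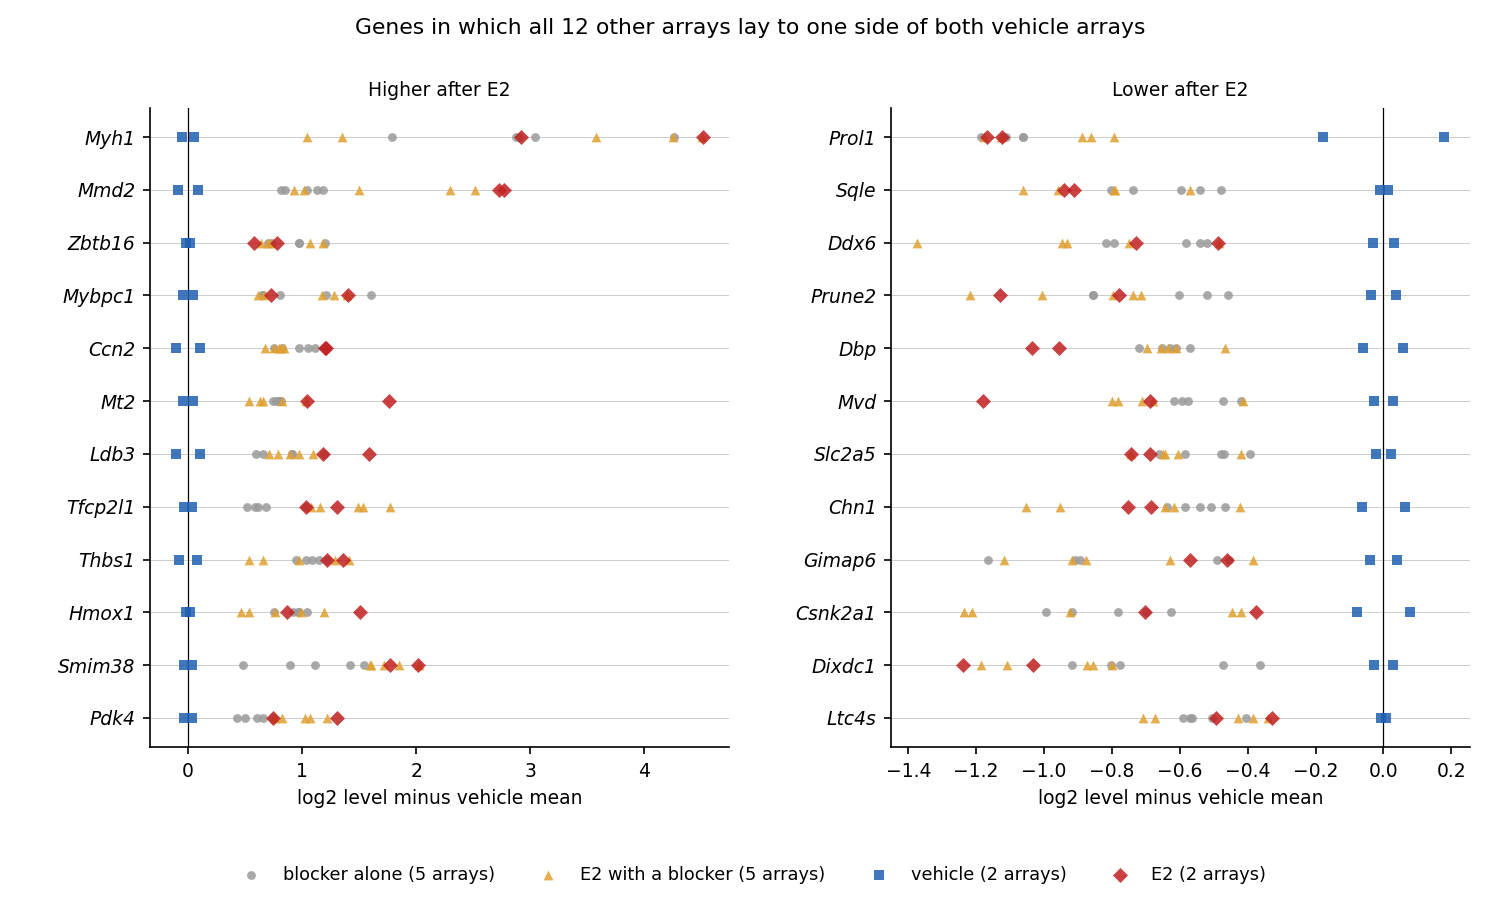
Log2 level minus the vehicle mean (horizontal axis) on each of the 14 arrays for the 12 raised (left) and 12 lowered (right) called genes whose nearest other array lay farthest beyond the vehicle arrays. The vehicle arrays stand alone near 0, and for Zbtb16 E2 array 1 lies closest to them of the 12 others.

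Among the most abundant transcripts, changes of at least 1.5-fold touched fat metabolism in both directions. Pck1, which feeds glycerol synthesis in adipocytes, read 11.80 and 11.71 in vehicle and 12.43 and 12.50 after E2 (1.63-fold, 0.71 ± 0.09, adjusted p = 0.00121). Its other arrays reached 12.41 and all lay above vehicle. Acaca, acetyl-CoA carboxylase, read 11.19 and 11.21 in vehicle but 10.22 and 10.85 after E2 (-0.66 ± 0.16, adjusted p = 0.0402), and lost its call without vehicle array 1, vehicle array 2 or E2 array 1 (adjusted p up to 0.171). The brighter probe set of Acaca gave -0.20 (adjusted p = 0.249). Mid1ip1, an activator of that enzyme, read 10.98 and 11.03 in vehicle and 10.24 and 10.36 after E2 (-0.70 ± 0.09, adjusted p = 0.00191) and passed in every leave-one-out fit.

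Other abundant genes that rose were Zmiz1, a transcriptional coactivator, from 11.43 and 11.55 to 12.26 and 12.39 (1.79-fold, adjusted p = 0.00055), the plasmalogen-cleaving Tmem86a (1.72-fold), the basement membrane protein Tinagl1 (1.68-fold) and elastin, Eln (1.54-fold). Nnat, a small membrane protein of fat and brain, read 10.81 and 10.70 in vehicle and 11.40 and 11.92 after E2 (1.88-fold, adjusted p = 0.00583). The chaperone Hspa8 rose 1.59-fold at one probe set and lost its call without vehicle array 2 or E2 array 1 (adjusted p up to 0.0844), and its 2 brighter probe sets gave 0.13 (adjusted p = 0.405) and 0.17 (adjusted p = 0.295). For Tmem86a a blocker alone left the level at 10.61 to 10.73, at vehicle (10.67 and 10.60), against 11.46 and 11.37 after E2. For Tinagl1, Eln and Hspa8 all 10 other arrays lay above both vehicle arrays, by over 0.25 log2 for 8, 9 and 6 of them.

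Abundant genes that fell were the surface protein Cd24a, from 11.57 and 11.71 to 10.94 and 11.07 (-0.63 ± 0.09, adjusted p = 0.0041), and the clock repressor Bhlhe40, from 10.44 and 10.53 to 9.81 and 9.93 (-0.62 ± 0.09, adjusted p = 0.00551). Both lost their calls without E2 array 1 (adjusted p = 0.0502 and 0.0611). The noncoding RNA Xist, which coats the inactive X chromosome, read 11.29 and 11.25 in vehicle, 10.48 and 10.88 after E2 and 9.71 to 10.94 on the other arrays. It lost its call without vehicle array 1, vehicle array 2 or E2 array 1 (adjusted p up to 0.125), and its brighter probe set gave 0.07 (adjusted p = 0.832). Igkv9-120, an immunoglobulin light chain segment, fell by 0.63 and lost its call without vehicle array 2 or E2 array 2 (adjusted p up to 0.0753). It read 9.74 and 9.71 with E2+acolbifene, below both E2 arrays. All 10 other arrays lay below both vehicle arrays for Cd24a, Xist and Igkv9-120, and 9 did for Bhlhe40.

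The 24 pathway lists, each gene read at its brightest probe set, held 48 called members, and 8 of the lists held none. Together with the 10 marker lists they covered 513 measured genes, so the share called was above the background given next. The lists were chosen with earlier results of these data known, so no result is read from that excess. The background for this reading was 428 of 18193 genes higher (2.35%) and 291 lower (1.6%), with a median log2 difference of -0.0231. Negative regulators of the MAP kinase cascade had 5 of 20 higher and 0 lower, with a list median of 0.13: Errfi1 (1.25 ± 0.10, adjusted p = 8.06e-05), Lrig1 (0.61), Spred1 (0.53) and the phosphatases Dusp6 (0.52) and Dusp1 (0.47). Lrig1, which promotes turnover of EGF family receptors, read 9.10 and 9.19 in vehicle, 9.72 and 9.78 after E2 and 8.79 to 9.58 on the other 10 arrays. Errfi1 and Lrig1 passed in every leave-one-out fit, while Spred1, Dusp6 and Dusp1 each lost their calls without vehicle array 2 or E2 array 1 (adjusted p up to 0.0825), Dusp6 and Dusp1 also without vehicle array 1 (up to 0.0961) and Dusp1 without E2 array 2. The other 15, which include the Sprouty genes, ran from -0.22 to 0.21.

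The ligands and receptors of the EGF family split. Egfr, the EGF receptor, read 9.45 and 9.57 in vehicle, 10.38 and 10.46 after E2 and 9.86 to 10.32 on the other 10 arrays (0.90 ± 0.11, adjusted p = 0.000999). All the other arrays thus lay above vehicle, and the E2 arrays above them. The neuregulin Nrg2 rose by 0.44 (adjusted p = 0.039) and the receptor Erbb2 fell by 0.43 (adjusted p = 0.0477), and both lost their calls without any one of the 4 arrays (adjusted p up to 0.254). The list had 2 of 13 higher and 1 lower.

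Transcription factors of the mammary epithelium moved in both directions, 6 of 28 higher and 2 lower, with a median of 0.04. Tfap2c, known for regulating Esr1 in human breast cancer cells, read 7.67 and 7.96 in vehicle, 8.81 and 8.97 after E2 and 7.83 to 8.68 on the others (1.07 ± 0.14, adjusted p = 0.00178). Stat5a, which mediates prolactin signals, read 10.34 and 10.25 in vehicle, 11.17 and 10.99 after E2, 10.31 to 10.44 with a blocker alone and 10.57 to 11.22 with both (0.79 ± 0.09, adjusted p = 0.0012). Runx1 read 8.34 and 8.47 in vehicle and 9.22 and 9.12 after E2 (0.77 ± 0.09, adjusted p = 0.000999). These 3 passed in every leave-one-out fit.

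Tbx3 (0.44), Sox9 (0.43) and Cebpb (0.41) passed with all arrays and lost their calls without vehicle array 1, vehicle array 2 or E2 array 1 (adjusted p up to 0.205), Tbx3 and Cebpb also without E2 array 2. The 2 that fell were Gata3, above, and Foxa1, a pioneer factor of the receptor, which read 10.38 and 10.52 in vehicle, 8.56 and 9.29 after E2, 10.26 to 10.58 with a blocker alone and 8.80 to 10.04 with both. Trps1, another factor of luminal cells, had -0.53 and did not pass (adjusted p = 0.0905), nor did Elf5 at 0.44 (adjusted p = 0.0596).

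Components of cell junctions also split, 4 of 21 higher and 2 lower, with a median of 0.04. Cldn4, a claudin, read 9.15 and 9.17 in vehicle, 10.04 and 10.11 after E2 and 9.11 to 10.00 on the others (0.91 ± 0.10, adjusted p = 0.000473), which passed in every leave-one-out fit. The desmosomal genes Dsc2 (0.61), Dsp (0.55) and Dsg2 (0.52) passed with all arrays and lost their calls without vehicle array 1 or E2 array 1 (adjusted p up to 0.184), Dsc2 also without vehicle array 2. Cldn3 and Cldn8 were the 2 that fell, so that claudins stood on both sides, while Cldn1 (-0.17), Cldn5 (0.18), Cldn7 (0.09) and Cldn10 (-0.12) did not pass. All 9 basal epithelial markers were higher after E2, by 0.17 to 0.65. Of these, 6 had an unadjusted limma p under 0.05, against 19.7% of all genes. Krt14 (0.65), Trp63 (0.64) and Krt5 (0.48) were called, of which Krt14 alone passed in every leave-one-out fit. Krt5 and Trp63 lost their calls without vehicle array 1 or E2 array 1 (adjusted p up to 0.168), Krt5 also without vehicle array 2 and Trp63 without E2 array 2. The medians of the basal markers were 0.34 and 0.32 on the E2 arrays, those of the luminal markers -0.02 and -0.23, and those of skin keratinocyte markers 0.20 and 0.19. With a blocker alone the basal median was 0.34 for raloxifene, 0.23 for tamoxifen, 0.22 for fulvestrant and 0.03 and 0.02 for acolbifene. The keratinocyte median was 0.52 for tamoxifen, 0.11 for raloxifene, -0.07 for fulvestrant and -0.24 and -0.15 for acolbifene. Of the 9 keratinocyte markers none passed and 2 had an unadjusted p under 0.05. The part of these markers in the junction genes was not tested.

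Among targets of YAP and members of the Hippo pathway 4 of 22 were higher and 0 lower (median 0.11): F3, Ccn1, Ccn2 and Tead2 (0.43), of which Tead2 lost its call without any one of the 4 arrays (adjusted p up to 0.13). Yap1 (0.04), Wwtr1 (0.13) and Ankrd1 (0.13), another target, did not pass. Among targets of p53, 3 of 19 were higher, Gadd45a, Cdkn1a and Perp, and 1 lower, Plk2 (median 0.12). Cdkn1a, an inhibitor of cyclin-dependent kinases, read 9.63 and 9.87 in vehicle, 10.89 and 10.69 after E2 and 10.17 to 10.60 on the others (1.04 ± 0.11, adjusted p = 0.000413). Perp, which also serves in desmosomes, read 8.37 and 8.40 in vehicle and 9.16 and 9.14 after E2 (0.77 ± 0.11, adjusted p = 0.00422), with up to 9.72 for E2 with a blocker. The kinase Plk2 fell by 0.59 and lost its call without vehicle array 1, vehicle array 2 or E2 array 1 (adjusted p up to 0.126).

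In further lists 1 or 2 members were called. Over all genes 2.35% were higher and 1.6% lower, so such counts are not read as results about these lists. Trib3, a pseudokinase induced by ATF4, read 7.09 and 7.07 in vehicle and 8.15 and 7.80 after E2 (0.90 ± 0.13, adjusted p = 0.00366), and of the other 24 genes of amino acid transport and the ATF4 response the large neutral amino acid transporter Slc7a5 passed (0.58, adjusted p = 0.0149, and up to 0.127 without vehicle array 1 or E2 array 1). Bik, a death-promoting member of the BCL2 family, read 7.34 and 7.38 in vehicle and 8.27 and 8.17 after E2 (0.86 ± 0.09, adjusted p = 0.000473), 1 of 14 measured. Kcnk1, a potassium channel, rose by 0.89 (adjusted p = 0.00121), 1 of 17 genes of ion transport. Rnd3, a small GTPase of the actin cytoskeleton, rose by 0.77 (adjusted p = 0.00189) and Mrtfa, an actin-regulated coactivator of serum response factor, fell by 0.35 (adjusted p = 0.0469), 2 of 22 genes of actin regulation. Mrtfa lost its call without any one of the 4 arrays (adjusted p up to 0.252), while Trib3, Bik, Kcnk1 and Rnd3 passed in every leave-one-out fit.

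Genes of the prostaglandin pathway had 3 of 18 higher and 2 lower. Alox15, a lipoxygenase, read 7.68 and 7.41 in vehicle, 8.42 and 8.23 after E2 and 7.28 to 7.51 with a blocker alone (0.78 ± 0.11, adjusted p = 0.0042), and lost its call without E2 array 1 (adjusted p = 0.0565). Slco2a1, a prostaglandin transporter, and the receptor Ptger2 rose by 0.45 each, and Hpgd, which degrades prostaglandins, and the receptor Ptger3 fell by 0.49 and 0.37. These 4 lost their calls without any one of the 4 arrays (adjusted p up to 0.183). In glucose uptake and glycolysis Slc2a4, the insulin-responsive glucose transporter, fell from 12.57 and 12.52 to 11.93 and 12.04 (-0.56 ± 0.09, adjusted p = 0.00558), which was lost without vehicle array 1 or E2 array 1 (adjusted p up to 0.0604), and the other 15 did not pass (list median -0.12). Of 17 regulators of mRNA decay Tob2 (0.68, adjusted p = 0.00378) and Zfp36 (0.41, adjusted p = 0.0228) rose while Tob1 fell at its named probe set, and Zfp36 lost its call without any one of the 4 arrays (adjusted p up to 0.125). In steroid metabolism Cyp7b1, an oxysterol hydroxylase, rose by 0.48 (adjusted p = 0.026, and up to 0.167 without vehicle array 1, vehicle array 2 or E2 array 1), 1 of 17. Nfkbia, the inhibitor of NF-kB, rose by 0.37 (adjusted p = 0.0413, and up to 0.186 without any one of the 4 arrays), 1 of 17 genes of NF-kB feedback.

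No member was called in the lists of Kruppel-like factors, the Notch pathway, aminoacyl-tRNA synthetases, polyamine and nucleotide synthesis, histone demethylases and deacetylases, retinoid metabolism, regulators of G protein signalling, and receptors and ligands for endothelin, adenosine and kinins. Their 135 genes ran from -0.37 to 0.60, and 21 of them (15.6%) had an unadjusted limma p under 0.05, against 19.7% of all genes. Of the 16 genes of polyamine and nucleotide synthesis, which include the estrogen-responsive Odc1 (0.15 ± 0.11), 0 reached even an unadjusted p under 0.05. Among other cell markers, 0 of 11 lymphocyte, 0 of 9 endothelial and 0 of 3 erythroid genes passed (3, 1 and 0 at an unadjusted p under 0.05). Of 10 macrophage markers 5 had an unadjusted limma p under 0.05, and 1 of the 10 was higher after E2. Of 8 brown adipocyte markers 4 had such a p, and 2 of the 8 were higher. Of 16 genes of lipolysis and adipokines, Nnat was the 1 higher and Lep the 1 lower (median 0.02), Lep was also the 1 of 6 white adipocyte markers that passed (median -0.08), and Cldn3 the 1 of 10 luminal markers (median -0.14). The macrophage marker Cd68 fell by 0.60 (adjusted p = 0.00412), 1 of 10, and passed in every leave-one-out fit, and Ppargc1a, a coactivator of brown fat, fell by 0.56 (adjusted p = 0.00629), 1 of 8 brown adipocyte markers, which was lost without vehicle array 1 or E2 array 1 (adjusted p up to 0.0655).

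**Figure D5:**
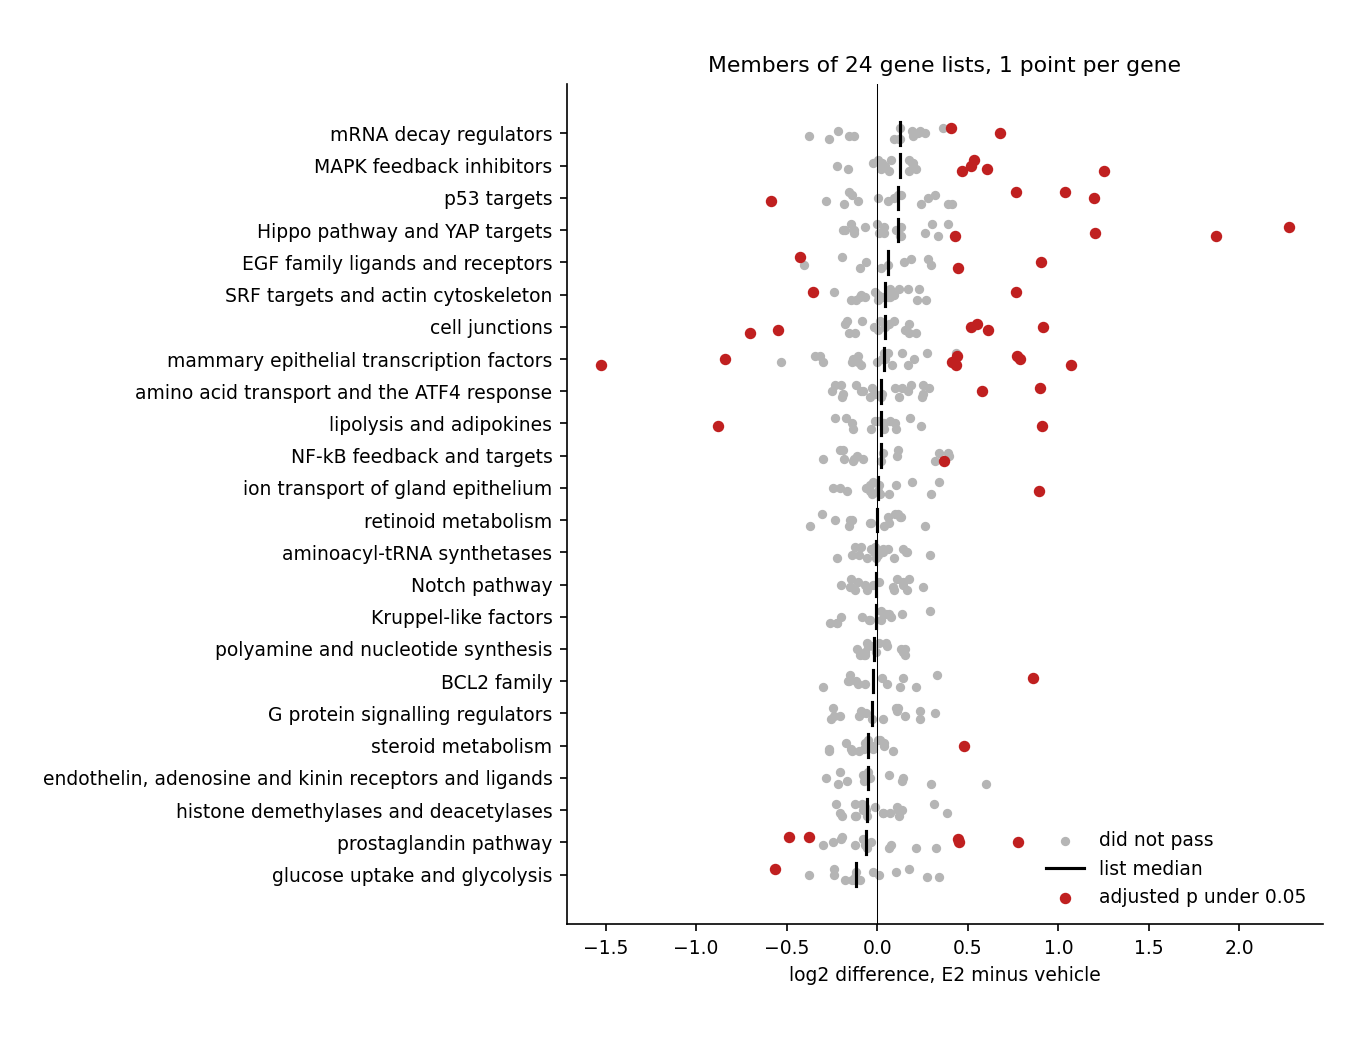
Log2 difference between E2 and vehicle (horizontal axis) for every measured member of the 24 pathway lists, 1 point per gene at its brightest probe set, with the list median as a bar and members with an adjusted p under 0.05 in red. Red points lie on both sides of 0 for transcription factors of the mammary epithelium and for cell junctions, and on the right alone for the 5 MAPK feedback inhibitors.

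Promoters were searched for short motifs to see what the raised genes share in sequence. RefSeq promoters (mouse build GRCm38.p6, 250 bases before to 50 after the start site) matched 14452 of the 18193 measured genes. The motifs sought on both strands were the full palindromic estrogen response element, the AP-1 site TGACTCA, the cyclic AMP response element (CRE) TGACGTCA and the GC box GGGCGG bound by Sp1, none of which contains another. The full estrogen response element was found in 0.0346% of the measured genes' promoters and in 0 of the 242 promoters of the raised genes whose 2 E2 arrays lay beyond all other arrays. In those 242 promoters AP-1 was found in 9 (3.72%, against 5.33% of measured genes), CRE in 12 (4.96%, against 2.92%) and the GC box in 167 (69%, against 57.3%). In 156 promoters of raised genes with all 12 arrays above vehicle the shares were 5.13%, 1.92% and 68.6%. A match is a description of these letters in this window and no evidence of binding.

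Of the 24 genes ranked 13 to 36 by rise, 17 had a promoter in the table, 1 with a CRE and 2 with AP-1. The promoters of Errfi1 and Mt2 are shown because they hold a CRE and an AP-1 site and both E2 arrays lay above every other array in each, by 0.28 and 0.01 log2. Of the other 10 arrays, 9 lay above vehicle for Errfi1 and all 10 for Mt2. They were chosen after the data had been seen, since no promoter among the 15 raised genes with the widest gap held an estrogen response element, AP-1 or CRE. Each is written 5′ to 3′ on the gene's strand, with the motif in capitals. The CRE of Errfi1 begins at -51 from the start site (GRCm38.p6 chr4:150854820-150855119, plus strand).
Errfi1: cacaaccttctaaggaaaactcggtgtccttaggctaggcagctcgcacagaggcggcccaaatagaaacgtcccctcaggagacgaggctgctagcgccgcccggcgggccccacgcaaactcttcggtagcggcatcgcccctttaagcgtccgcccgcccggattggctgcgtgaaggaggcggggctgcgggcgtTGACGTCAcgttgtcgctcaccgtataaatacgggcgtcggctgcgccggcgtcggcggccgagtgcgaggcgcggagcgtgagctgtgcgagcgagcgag
The AP-1 site of Mt2 begins at -79 from the start site (GRCm38.p6 chr8:94172368-94172667, plus strand).
Mt2: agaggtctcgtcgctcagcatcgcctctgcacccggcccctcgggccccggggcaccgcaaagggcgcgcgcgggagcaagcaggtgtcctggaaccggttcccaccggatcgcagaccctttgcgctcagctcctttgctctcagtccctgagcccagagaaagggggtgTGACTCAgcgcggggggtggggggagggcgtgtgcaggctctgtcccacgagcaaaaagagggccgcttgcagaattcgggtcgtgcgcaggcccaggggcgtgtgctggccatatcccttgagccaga
Ldb3, also of these ranks, had its AP-1 site at -95.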

How the data were processed

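The authors deposited log2 levels of 14 arrays. The submitters' processing notes name RMA, whose version is not given in the sources used here. RMA subtracts background, equalizes array distributions and summarises probes, which compresses weak signals. The design text names U74Av2 arrays, but the 45101 probe sets are those of the Mouse Genome 430 2.0 array. After 64 control probe sets were left out, 45037 remained: 34945 with 1 gene symbol in the platform annotation (18193 genes), 932 with several and 9160 with none. Symbols looked up by gene identifier in RefSeq's GRCm38.p6 table changed for 0.

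Groups came from the treatment labels. E2 was tested against vehicle, acolbifene and E2+acolbifene with limma 3.58.1 in R 4.3.3 (lmFit, eBayes, Benjamini-Hochberg over 45037 probe sets, adjusted p under 0.05) on the 8 arrays of these 4 groups, with no further term. The steps were tested on simulated data. The number of arrays, 2 per group, limits the precision. A probe set below the 40 percentile of mean level (6.65) is called dim, and the size of its fold is not exact. Named genes were called probe sets with 1 symbol whose E2 and vehicle arrays did not overlap (52.1% of all probe sets did not), 1 per gene at its largest change: ranks 13 to 36 in each direction, the 15 and 15 with the widest gap to all 12 other arrays, the 12 and 12 with the other 10 arrays farthest beyond vehicle, the 10 and 10 with the highest vehicle level among changes of at least 1.5-fold, and Pgr, Esr1, Esr2 and members of 24 pathway and 10 marker lists (552 genes, 513 measured), read at the brightest probe set. Lists are described by counts, with no list test. The members, lists and rules were chosen with earlier results of these data known. Equal replicate numbers were not treated as pairs: deviations of same-numbered arrays correlated between -0.12 and 0.12 over the pairs of groups.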

Additional observations from a re-analysis of the deposited data

How the results depend on the processing

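The 1685 calls for E2 against vehicle became 1022 with the 4 vehicle and E2 arrays alone (969 shared), 479 with all 14 arrays and the raw-file code as a term (426 shared), and 2720 with an intensity trend. As only the E2 group holds both codes, the code term sets E2 array 1 aside, and all counts with the code are those without E2 array 1. With 1 array left out the calls ran from 430 to 941. The 933 higher calls became 370 with the code and 294 to 458 with 1 array left out. The 752 lower calls became 389 with the 4 arrays alone, 109 with the code, 1347 with the trend and 109 to 542 with 1 array left out. A group left with 1 array is assumed to vary like the others. Calls against acolbifene (1922) became 215 with the code, 3679 with the trend and 215 to 1280 with an E2 array left out. Calls against E2+acolbifene (1649) became 284 with the code, 3030 with the trend, 1034 after repeated quantile normalization, 82 with the muscle marker median as a covariate and 240 to 284 with an E2 array left out. The 631 calls with all 12 arrays on one side became 72 by a margin over 0.25 log2, 988 over the 6 other arrays of code R136 alone and 184 to 376 with 1 array left out. Called members of the pathway lists, 48, became 23 to 39 with 1 array left out; the leave-outs for the 631 and the 48 and the split by code were added after seeing the data. Among single genes Acta1, not called with all arrays (0.02), reversed to -0.54 without E2 array 2 and reached 0.585 without E2 array 1. The cause of these changes was not tested, except that fewer arrays were fitted.

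The replicate numbers do not pair the arrays by the labels. With the replicate number as a block, 1354 probe sets were called against vehicle (1311 shared) and 1002 against E2+acolbifene.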
